A study of Xenopus tropicalis with 15 samples.

Results

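Keratins were examined in regenerating tail tissue of Xenopus tropicalis tadpoles. They were taken as the gene models whose symbol begins with krt followed by a digit, which gave 46 of the 34192 gene models in the quantification files. Bulk RNA sequencing covered 15 libraries in 5 groups of 3. All tadpoles were wild type, had the posterior part of the tail removed at NF stage 41, which is 3 days after fertilisation, and were kept at 23 °C. The groups at 24 hours post amputation (hpa) were about 250 µm of tissue from tadpoles reared with 5 µM 2-methoxyestradiol (2ME), 0.5 µM echinomycin, 10 µM IWR-1 or 0.1% DMSO, the vehicle. The group at 0 hpa was untreated tissue of the same length from in front of the cut, so time, position along the tail and DMSO differ together between it and the DMSO group. 2ME and echinomycin were used as antagonists of Hif1a and IWR-1 as an antagonist of Wnt signalling. The treatment labels of IWR replicates 2 and 3 read IWR-2 and IWR-3, whereas the study's design text mentions no compound of those names. All 3 libraries are treated here as 1 group. The labels do not say whether a library came from 1 tadpole, from pooled tadpoles or from a separate clutch, so the p-values reflect the variation among these libraries, which may be technical.

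Keratins are the intermediate filament proteins of epithelial cells. A filament is built from pairs of 1 type I and 1 type II chain, and the filaments are tied to neighbouring cells at desmosomes and to the basement membrane at hemidesmosomes. Simple epithelia typically carry the pair of KRT8 and KRT18, whereas layered epithelia replace it with other pairs as cells mature. The tail of a Xenopus tadpole is covered by a thin larval epidermis that spreads over an amputation wound within hours, and this larval skin is exchanged for an adult skin at metamorphosis.

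Library totals lay between 17297773 and 23377789 estimated counts, so that a count of 0 allowed up to 0.128 to 0.173 counts per 1000000 (CPM) in a library, taking 3 counts as the limit and counting error alone. Levels of 1 gene across libraries are given below as CPM, and levels of different genes are compared only as transcripts per 1000000 (TPM), which corrects for transcript length. Of the 46 keratin models, 25 had enough counts to be tested and 21 did not. The highest value of an untested model in any library was 0.701 CPM, for krt12.1. Of the 25 tested models, 18 reached the cutoff of the filter, 0.471 CPM, in every library of all 5 groups. The other 7 reached it in every library of fewer groups (krt78.7, krt9.1, krt51, krt53, krt20, krt12.6 and krt18.2). Such a model passed through the groups in which it is high, so the counts of changed models below describe the tested models and are not support for a change of the family.

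Keratin transcripts were concentrated in a few genes. Of the 46 models, 13 exceeded a mean of 100 TPM over the 15 libraries and 4 exceeded 1000 TPM. The most abundant was the type I keratin krt12.5, at 7972 ± 207 TPM with 2ME, 9779 ± 781 TPM with echinomycin, 5638 ± 291 TPM with IWR-1, 9039.8 ± 1077 TPM with DMSO and 9326 ± 861 TPM at 0 hpa (mean ± SD, n = 3 per group, as for all means below). The type II keratin krt7, a keratin of simple and glandular epithelia in mammals, stood at 7014 ± 215 TPM with 2ME, 8262 ± 1277 TPM with echinomycin, 5145 ± 381 TPM with IWR-1, 10175 ± 1214 TPM with DMSO and 10627 ± 1040.3 TPM at 0 hpa. In TPM, krt12.5 exceeded krt7 in all 9 libraries of the compound groups, and krt7 exceeded krt12.5 in all 6 libraries with DMSO or at 0 hpa. The third was krt12.2, at 4473 ± 391 TPM with 2ME, 2304 ± 824 TPM with echinomycin, 2472 ± 105 TPM with IWR-1, 9567 ± 352 TPM with DMSO and 264 ± 25.0 TPM at 0 hpa. The fourth, krt12.3, averaged 852 ± 24.5 TPM with 2ME, 2386 ± 504 TPM with echinomycin, 1175 ± 187 TPM with IWR-1, 2222 ± 421 TPM with DMSO and 5615 ± 647 TPM at 0 hpa.

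The largest difference in this make-up was in krt12.2, which supplied 19.0% of keratin TPM with 2ME, 7.74% with echinomycin, 14.0% with IWR-1 and 27.5% with DMSO, against 0.861% at 0 hpa. With DMSO it exceeded krt12.5 in 2 of 3 libraries, so these 2 genes are not ordered beyond the spread of that group. krt12.3 supplied 3.62% with 2ME, 8.11% with echinomycin, 6.63% with IWR-1 and 6.33% with DMSO, against 18.3% at 0 hpa. The 3 most abundant keratins of a library together held 82.7 ± 0.742% of keratin TPM with 2ME, 70.3 ± 1.15% with echinomycin, 74.9 ± 1.503% with IWR-1, 82.5 ± 0.355% with DMSO and 83.2 ± 0.322% at 0 hpa. The share was lowest with echinomycin, whose libraries overlapped no other group.

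**Figure D1:**
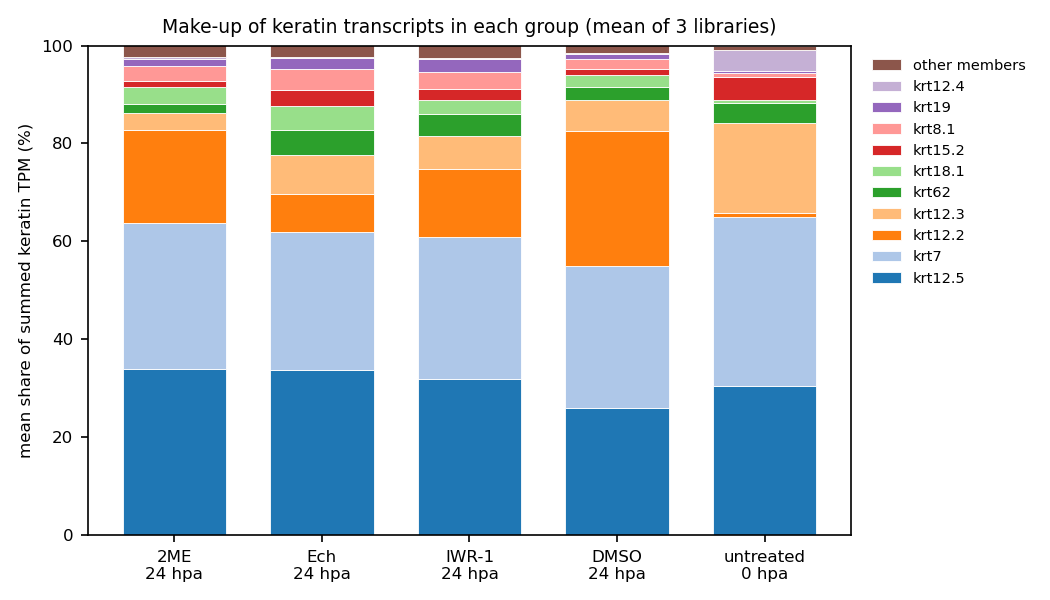
Mean share of summed keratin TPM, in percent, held by each of the 10 most abundant keratins and by the other members together, in each group (mean of 3 libraries). krt12.2 holds 27.5% of the DMSO bar and 0.861% of the 0 hpa bar, and krt12.3 holds 6.33% and 18.3% of them.

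As a share of all estimated counts, keratins held 3.17 ± 0.0234% with 2ME, 4.04 ± 0.385% with echinomycin, 2.40 ± 0.145% with IWR-1 and 5.08 ± 0.442% with DMSO, against 4.28 ± 0.246% at 0 hpa. All DMSO libraries (4.57 to 5.35%) lay above all libraries of 2ME (3.15 to 3.198%), echinomycin (3.67 to 4.44%), IWR-1 (2.25 to 2.54%) and 0 hpa (at most 4.45%). The IWR-1 libraries lay below all others, and those of echinomycin and 0 hpa overlapped. As a share of TPM, the DMSO libraries (3.15 to 3.75%) overlapped those of echinomycin (2.56 to 3.26%) and 0 hpa (2.71 to 3.29%). An exact permutation test of 3 libraries against 3 cannot go below p = 0.10, so these shares are given as a description. In bulk tissue, fewer keratin-bearing cells and less keratin RNA per cell cannot be told apart.

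The genome holds most of these genes in tandem arrays. By neighbour order in the RefSeq annotation (assembly UCB_Xtro_10.0, whose gene names were matched to those of the files), 24 members lie in a type I array that runs from krt70 to krt222 and contains krt12.1 to krt12.6. Another 16 lie in an array from krt18.1 to krt80 that contains krt8.1, krt7 and the krt78 copies and is taken here as type II, with krt18.1 at its edge as a type I gene. krt8.2 and krt18.3 are neighbours elsewhere, krt18.2 stands alone, and krt51, krt78.8 and krt6 were not placed. Types were assigned from the array and from the names krt8 and krt18, since no protein sequences were used here, which gave 27 type I and 16 type II members.

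Summed over members, type I keratins reached 15164 ± 101 TPM with 2ME, 18003 ± 2058 TPM with echinomycin, 11072 ± 458 TPM with IWR-1, 22884 ± 1749 TPM with DMSO and 18513 ± 1857 TPM at 0 hpa. Type II keratins reached 8365 ± 246 TPM with 2ME, 11189.6 ± 1458 TPM with echinomycin, 6626 ± 197 TPM with IWR-1, 11974 ± 1361 TPM with DMSO and 12208 ± 1288 TPM at 0 hpa. The ratio of type I to type II was 1.81 ± 0.0508 with 2ME, 1.61 ± 0.0361 with echinomycin, 1.67 ± 0.0211 with IWR-1 and 1.92 ± 0.0764 with DMSO, against 1.52 ± 0.0278 at 0 hpa. All libraries of 0 hpa (1.49 to 1.54) lay below all libraries at 24 hpa, and those of DMSO (1.84 to 1.99) and 2ME (1.76 to 1.85) overlapped. The summed type II level with DMSO (10530.2 to 13234 TPM) overlapped that at 0 hpa (10755 to 13208 TPM), whereas the type I level with DMSO (20926 to 24291 TPM) lay above that at 0 hpa (16370.1 to 19643 TPM). The ratio uses transcript levels corrected for length; over estimated counts it was 1.09 with 2ME, 0.961 with echinomycin, 1.00 with IWR-1, 1.17 with DMSO and 0.891 at 0 hpa.

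**Figure D2:**
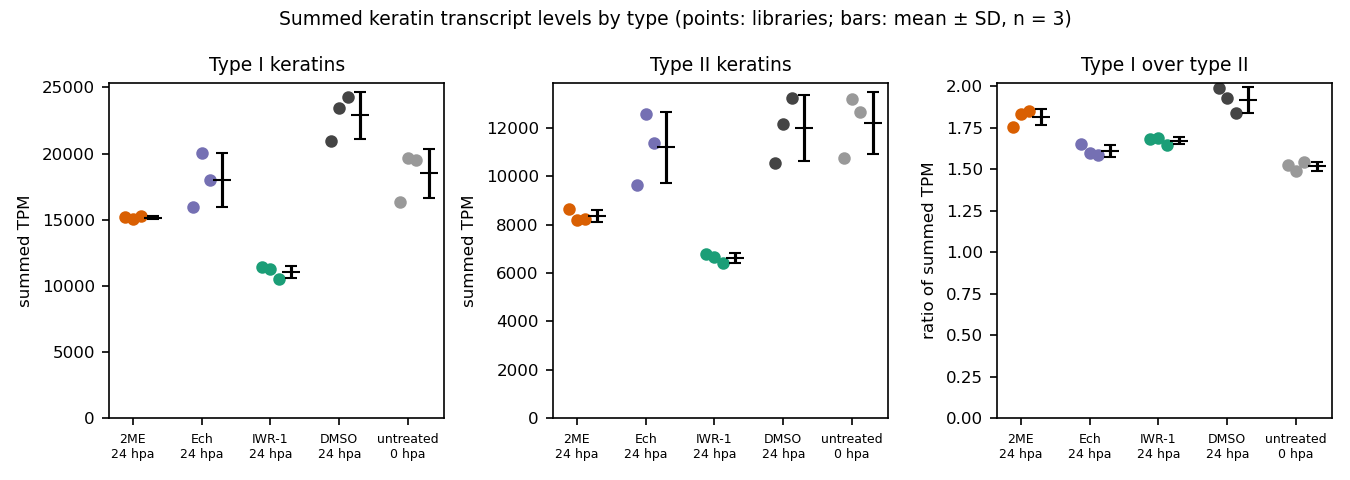
Summed TPM of type I keratins (left), of type II keratins (middle) and their ratio (right) in each library; points are libraries and bars the mean ± SD of 3. With DMSO the ratio is 1.84 to 1.99, above the 1.49 to 1.54 at 0 hpa.

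Many named keratins were close to silent in this tissue. Of the 9 krt78 copies, krt78.1 had 390 ± 78.5 CPM with DMSO, and the other 8 copies stayed at or under 1.36 CPM in every library. Of the krt50 to krt57 members of the type I array, krt53 was the one that passed the filter, and the others stayed at or under 0.173 CPM. They include krt55, listed under the names of the Xenopus adult keratins xak-a and xak-b. krt17 and the krt6 members, whose mammalian namesakes are switched on in wounded skin, did not pass the filter. krt17 had 0.0538, 0.132 and 0 CPM in the DMSO libraries, against 0.0578, 0.204 and 0.169 CPM at 0 hpa, and krt6b had 0 counts in all 6 of these. The 1 count of krt6b, in the second 2ME library, gave 0.0471 CPM but 0.311 TPM, whereas krt7 had 12729.6 CPM and 6824 TPM there. The krt6b model is thus much shorter than krt7 and gathers fewer reads at a given level, so its 0 counts say little. krt24 and krt50 had 0 counts in all 15 libraries. krt34 had 0.620 CPM in 1 echinomycin library and at most 0.0578 CPM in any other, and was not tested.

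The comparison of DMSO-treated tissue at 24 hpa with tissue at 0 hpa asks how the keratins of a regenerating tail differ from those of the tail at amputation. Keratins are called keratins of simple epithelia here and below by the names they share with mammalian genes, and the cells that carry them were not examined. Of these, krt8.1, krt18.1, krt18.2, krt18.3 and krt19 rose, and krt7 and krt8.2 did not pass the test. krt12.2 became one of the most abundant keratins, and krt51 and krt53 had counts well above the few or none at 0 hpa. The embryonic epidermal keratin krt12.4, krt15.2 and krt12.3 fell, while krt12.5 and krt7, the most abundant keratins, did not pass the test. By edgeR's quasi-likelihood test with Benjamini-Hochberg adjustment over all 18823 tested models, called under 0.05, 20 of the 25 tested keratins changed, 14 higher and 6 lower, where 63% of all tested models changed, 32.2% higher and 30.8% lower. Changes of 2-fold or more were 10 higher and 4 lower, where 8.77% and 14.5% of all models changed so. The median log2 ratio of the tested keratins was 0.67, against 0.00 over all tested models.

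krt12.2 had 11844, 13106 and 12019 CPM in the DMSO libraries, against 305, 309 and 347 CPM at 0 hpa. The groups did not overlap, and the log2 ratio was 5.25 ± 0.18, or 38.1-fold (adjusted p = 8.05e-13). Further along the same array, past krt20, krt12.3 had 1976, 2649 and 2807 CPM with DMSO, against 5410.1, 6041 and 6239 CPM at 0 hpa. It fell by 2.40-fold, a log2 ratio of -1.26 ± 0.15, with every DMSO library below every 0 hpa library. The next gene along the array is krt12.4, listed as xK81 or epi-keratin, a name of Xenopus embryonic epidermal keratin. It had 55.7, 81.4 and 77.3 CPM with DMSO, against 1221, 1408 and 1535 CPM at 0 hpa, again without overlap and with a log2 ratio of -4.29 ± 0.17, 19.5-fold lower. The gene after it, krt12.5, had 8854, 10668 and 10869.9 CPM with DMSO, against 9305, 9970.3 and 10265 CPM at 0 hpa. These libraries overlapped, and the log2 ratio of 0.03 ± 0.083 had a 95% interval of -0.14 to 0.19. krt7, in the other array, had 17522, 21219.8 and 21557 CPM with DMSO, against 18607, 20412 and 20278 CPM at 0 hpa, also overlapping, with a 95% interval of -0.18 to 0.21.

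Near neighbours in this array thus had ratios of opposite sign, and the sum over its krt12 copies moved less than krt12.2, krt12.3 or krt12.4. The 6 krt12 copies together had 25004 ± 2002 CPM with DMSO, against 17452 ± 1099 CPM at 0 hpa, a log2 ratio of 0.48 ± 0.088. The estimated counts of krt12.4 departed from whole numbers by more than 0.01 in 14 of 15 libraries and those of krt12.3 in 9, as happens when a read fits more than 1 transcript, and those of krt12.2 and krt12.5 in none. Single values of krt12.3 and krt12.4 may therefore include shared reads. How many reads are shared was not measured, and whole-number estimates do not show that krt12.2 and krt12.5 share none.

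**Figure D3:**
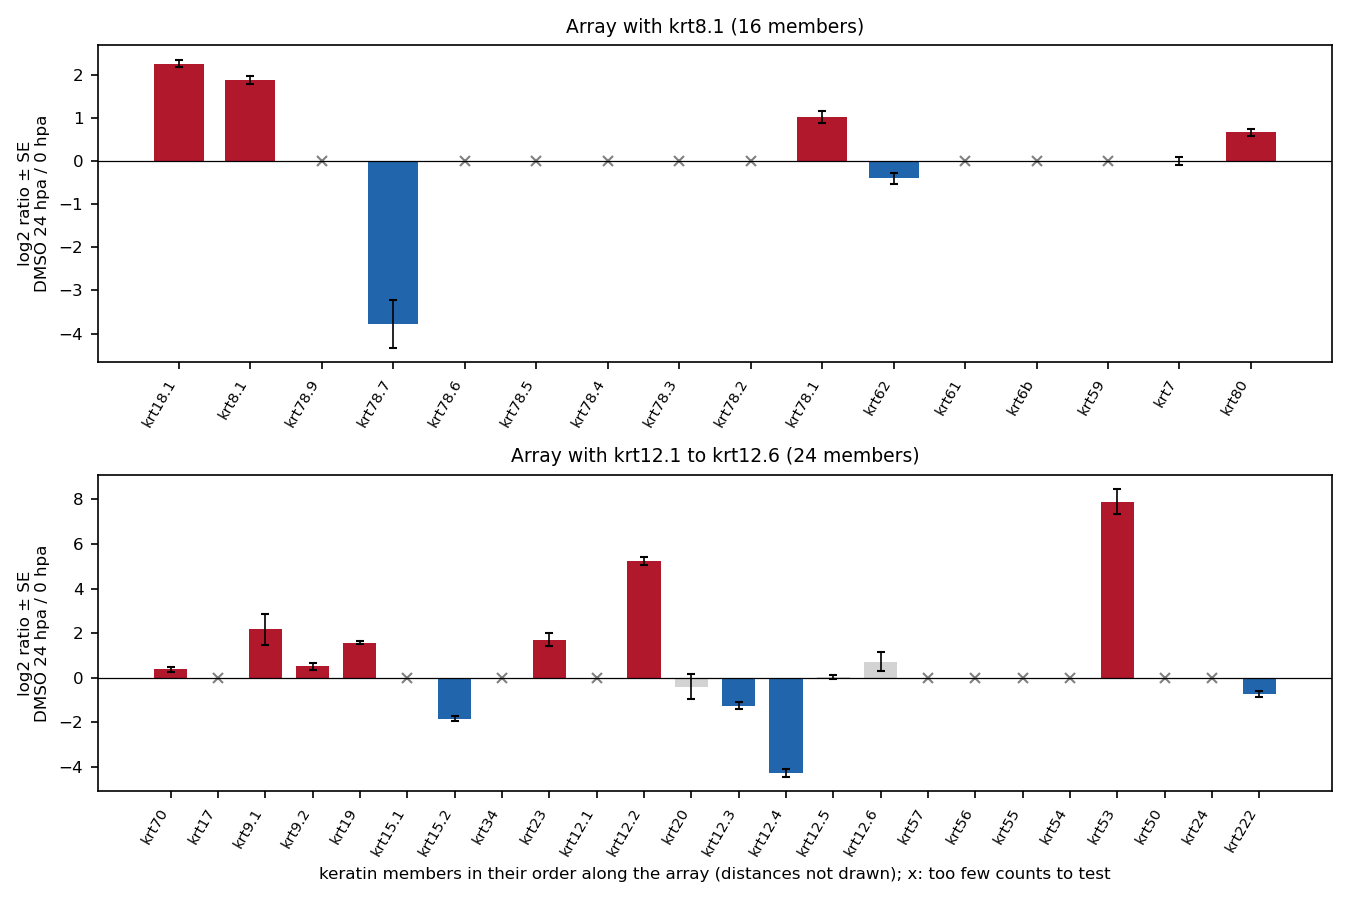
Log2 ratio ± SE of DMSO at 24 hpa over 0 hpa for the keratins of both arrays, in their order along the chromosome, with distances not drawn; red is called higher, blue called lower, grey not called, and a cross marks a model with too few counts to test. In the array of the krt12 copies krt12.2 is at 5.25, krt12.3 at -1.26 and krt12.4 at -4.29; the ratio of krt53 rests on 1 count at 0 hpa.

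krt15.2, whose mammalian namesake marks basal cells of layered epithelia, had 555, 608 and 751 CPM with DMSO, against 2230.2, 2275 and 2300.2 CPM at 0 hpa. It was 3.59-fold lower with no overlap, a log2 ratio of -1.85 ± 0.10, and its counts were not whole in 13 libraries. krt62, a type II member, had 1457, 1728 and 2172 CPM with DMSO, against 1963, 2495 and 2519 CPM at 0 hpa. These overlapped, and its log2 ratio of -0.39 ± 0.12 was called (adjusted p = 0.0112), a call that ended without the first DMSO library (adjusted p = 0.0560). krt222, a keratin-like gene at the end of the type I array, had 3.99, 5.14 and 5.77 CPM with DMSO, against 8.39, 8.36 and 8.25 CPM at 0 hpa, a log2 ratio of -0.75 ± 0.13, and estimates that were not whole in all 15 libraries. The sixth model that fell, krt78.7, was seen mainly at 0 hpa, with 0.108, 0.132 and 0.0428 CPM with DMSO, against 1.27, 1.36 and 1.35 CPM at 0 hpa. This model passed the filter through the 0 hpa group alone, which favours a fall.

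The pair of simple epithelia rose together. krt18.1, the type I partner, had 979, 961 and 864 CPM with DMSO, against 189, 196 and 192 CPM at 0 hpa. krt8.1, the type II partner and its neighbour on the chromosome, had 1281, 1146 and 1013 CPM with DMSO, against 292, 309.5 and 316 CPM at 0 hpa. Neither overlapped between the groups, and the log2 ratios were 2.27 ± 0.086 and 1.89 ± 0.090, or 4.82-fold and 3.72-fold. In TPM, krt18.1 averaged 906 ± 41.0 and krt8.1 676 ± 71.0 with DMSO, against 198 ± 13.4 and 191 ± 16.2 at 0 hpa, and krt18.1 was the higher of the pair in all 6 libraries. The other pair of this kind, krt18.3 and krt8.2, moved less. krt18.3 had a log2 ratio of 0.81 ± 0.094, and krt8.2 one of 0.20 ± 0.11 that was not called, with a 95% interval of -0.01 to 0.41. The estimates of krt8.1 were not whole in any of the 15 libraries, and those of krt8.2 were not whole in 0. krt8.1 and krt8.2 summed had a log2 ratio of 1.73 ± 0.087. Which models share reads with krt8.1 was not measured, so this sum may leave shared reads out.

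krt18.2, the third krt18 copy, had 165, 158 and 108 CPM with DMSO, against 0.405, 0.204 and 0.677 CPM at 0 hpa. All DMSO libraries were far above all 0 hpa libraries, with a log2 ratio of 8.38 ± 0.27. krt51 had 15.02, 13.3 and 12.8 CPM with DMSO, against 0 counts in each 0 hpa library, which makes it at least 248-fold higher when 3 counts over the group are taken as the limit. krt53 had 7.21, 5.57 and 4.53 CPM with DMSO, against 1 count in all at 0 hpa, a ratio of 310 with a counting interval of 55.3 to 12268. krt19, a type I keratin of simple and ductal epithelia in mammals, had 483, 435 and 404 CPM with DMSO, against 132, 156 and 154 CPM at 0 hpa, and a log2 ratio of 1.57 ± 0.074. krt78.1, whose mammalian namesake is a type II keratin of layered epithelia, had 299, 432 and 438 CPM with DMSO, against 185, 175 and 207 CPM at 0 hpa, and a log2 ratio of 1.03 ± 0.14. Neither gene overlapped between the groups. The other models that rose were krt23 (1.71 ± 0.30), krt9.1 (2.17 ± 0.71), krt80 (0.67 ± 0.083), krt9.2 (0.50 ± 0.15) and krt70 (0.38 ± 0.11), given as log2 ratios. Of these, krt9.1 had 39 counts with DMSO and 7 at 0 hpa. It passed the filter through the DMSO group alone, which favours a rise. krt18.2, krt51 and krt53 passed through DMSO and not through 0 hpa, which favours a rise as well.

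**Figure D4:**
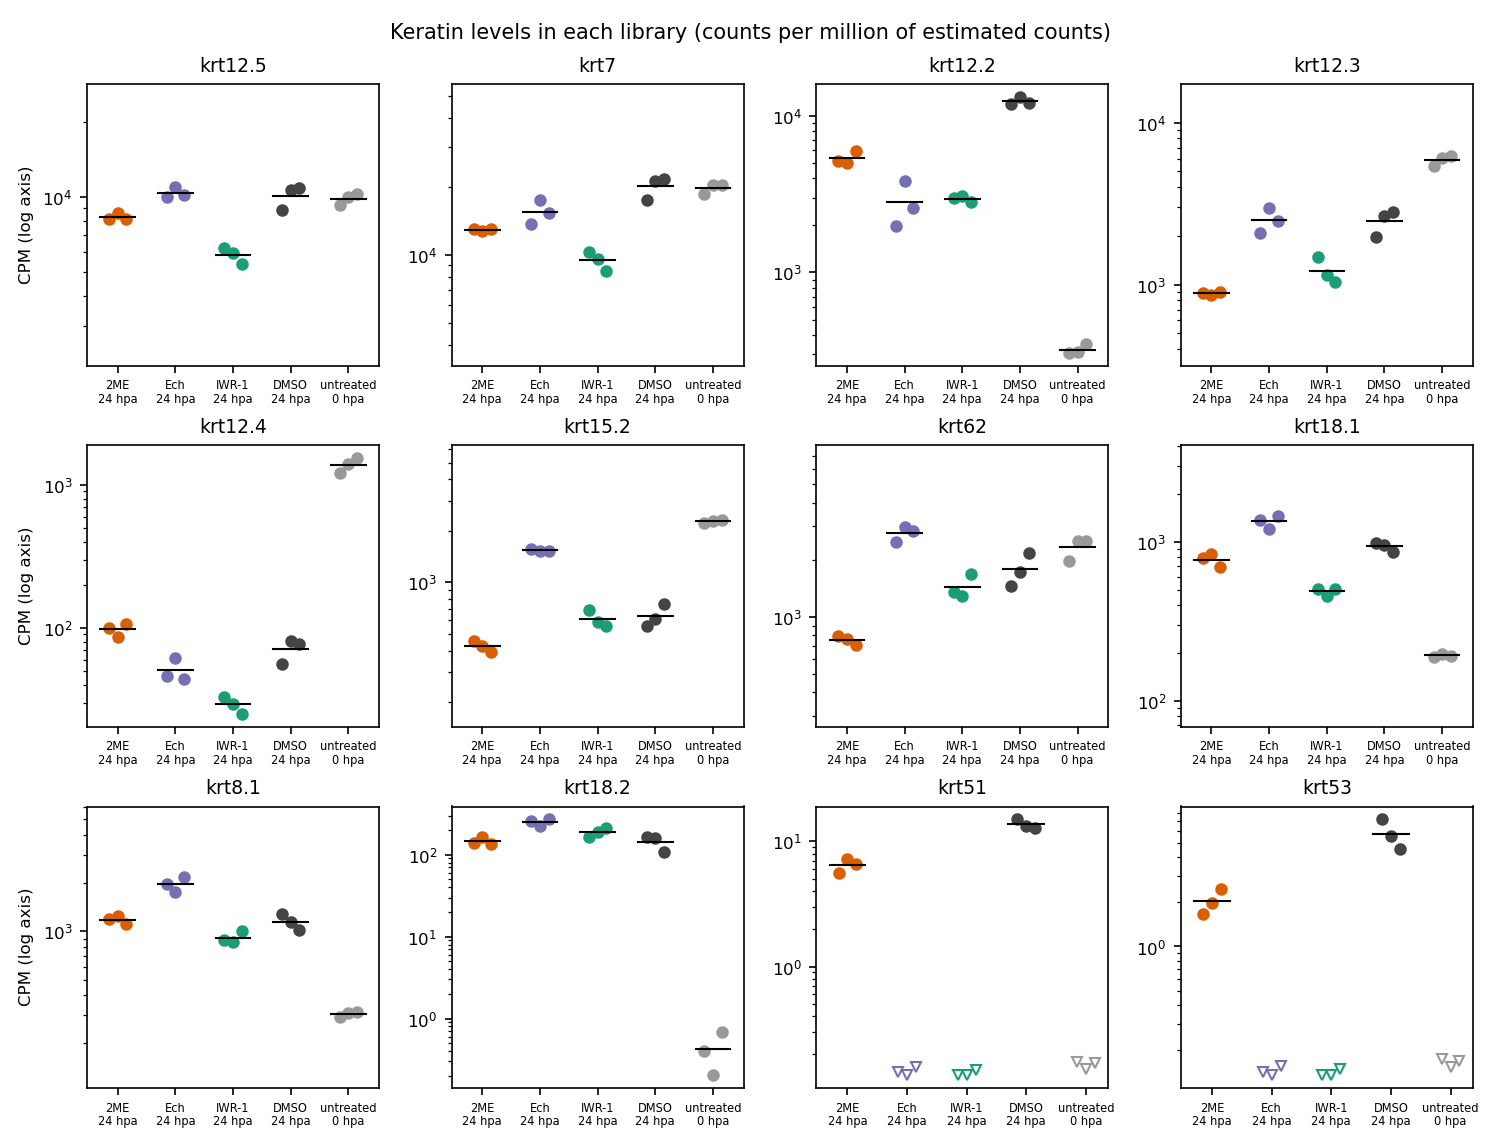
CPM on a log axis of 12 keratins in each library; points are the 3 libraries of a group, lines their mean, and open triangles mark libraries at or under 3 counts, drawn at that limit. krt12.2 lies highest with DMSO and lowest at 0 hpa, and krt51 and krt53 reach above the limit with 2ME and DMSO alone.

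IWR-1, an inhibitor of tankyrase that stabilises Axin and so lowers Wnt signalling, was compared with DMSO at 24 hpa. No tested keratin was called higher with IWR-1 in the fit used here, and krt12.5, krt7, krt12.2 and krt12.3 were called lower. krt19 was not called, at a log2 ratio of 0.16 ± 0.071, although all its IWR-1 libraries lay above all DMSO libraries. Of the 25 tested keratins, 0 were higher and 15 lower, where 42.3% of all tested models changed, 19.9% higher and 22.4% lower. Changes of 2-fold or more were 0 higher and 9 lower, where 5.93% and 2.69% of all models changed so. The median log2 ratio was -0.69, against -0.02 over all models. Without scaling factors, which moves the median of all models up by 0.16, the split was 2 higher (krt18.2 and krt19) and 14 lower. The falls of 2-fold or more include krt51 and krt53, which passed the filter through 2ME and DMSO alone. They also include krt9.1, which passed through DMSO alone, with 39 counts with DMSO and 8 with IWR-1 (log2 ratio -2.37 ± 0.68). Passing through DMSO and not through IWR-1 favours a fall.

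krt12.5 had 6232, 5926 and 5385 CPM with IWR-1, against 8854, 10668 and 10869.9 CPM with DMSO, and krt7 had 10257, 9584 and 8444 CPM with IWR-1, against 17522, 21219.8 and 21557 CPM with DMSO. Both fell without overlap, with log2 ratios of -0.95 ± 0.083 and -1.25 ± 0.099. krt12.2 had 2965, 3053 and 2810.5 CPM with IWR-1 and was 4.68-fold lower than with DMSO, a log2 ratio of -2.23 ± 0.16. krt78.1 fell by a similar size, to 97.6, 104 and 103 CPM with IWR-1, against 299, 432 and 438 CPM with DMSO, a log2 ratio of -2.10 ± 0.14. All 3 IWR-1 libraries of krt78.1 were also below all 3 at 0 hpa. The simple epithelial pair fell unequally. krt18.1 had 508, 455 and 508 CPM with IWR-1 and a log2 ratio of -1.09 ± 0.083, and krt8.1 had 879, 861 and 999 CPM and a log2 ratio of -0.49 ± 0.087. In TPM, krt8.1 was above krt18.1 in all 3 IWR-1 libraries, and below it in all libraries of the other groups.

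krt12.4 had 33.1, 29.5 and 25.0 CPM with IWR-1, below every DMSO library, a log2 ratio of -1.45 ± 0.16. krt12.3 fell to 1471, 1142 and 1034 CPM with IWR-1, a log2 ratio of -1.19 ± 0.15. krt70 (-0.76 ± 0.11), krt9.2 (-0.62 ± 0.15) and krt18.3 (-0.42 ± 0.092) fell as well. krt62 had 1359.8, 1283 and 1679 CPM with IWR-1, overlapping DMSO, and its log2 ratio of -0.47 ± 0.12 lost its call without scaling factors (adjusted p = 0.0661). krt51 had 1 count over the 3 IWR-1 libraries, against 881 with DMSO, a ratio of 874 with a counting interval of 156 to 34551. krt53 had 3 counts with IWR-1, against 367 with DMSO, a ratio of 121 with an interval of 41.2 to 591. krt15.2, krt18.2, krt19 and krt222 were not called, at log2 ratios of -0.22 ± 0.099, 0.23 ± 0.14, 0.16 ± 0.071 and 0.09 ± 0.13. krt15.2 was called lower without the first DMSO library (adjusted p = 0.0198) or the first IWR-1 library (adjusted p = 0.0118). krt19 was called higher with IWR-1 with upper-quartile factors, with no factors, with factors from a table without keratins, in DESeq2, with limma on the deposited CPM table and without the first DMSO library, but not with RLE factors in edgeR.

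2ME, a natural derivative of oestradiol known to disrupt microtubules and to reduce HIF1A, was compared with DMSO in the same way. Again every keratin that was called was lower. Of the 25 tested, 0 were higher and 13 lower, where 30.5% of all tested models changed, 14% higher and 16.5% lower. Changes of 2-fold or more were 0 higher and 6 lower, where 2.45% and 2.19% of all models changed so. The median log2 ratio was -0.35, against -0.02 over all models. Without scaling factors, which moves the median of all models up by 0.14, the split was 2 higher (krt12.4 and krt222) and 10 lower. With TMM factors from a table without keratins it was 1 higher (krt222, adjusted p = 0.0411) and 12 lower. In the fit used here krt222 was not called (log2 ratio 0.32 ± 0.13), although all its 2ME libraries lay above all DMSO libraries. It was called higher without the third DMSO library (adjusted p = 0.0297).

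The largest falls with 2ME among the 8 most abundant keratins were in krt12.3, krt62 and krt12.2. krt12.3 had 882, 868 and 902 CPM with 2ME, against 1976, 2649 and 2807 CPM with DMSO, a log2 ratio of -1.63 ± 0.15. krt62 had 788, 769 and 707 CPM with 2ME, against 1457, 1728 and 2172 CPM with DMSO, a log2 ratio of -1.38 ± 0.13. Neither overlapped, and both were lower with 2ME than in any other group. krt12.2 had 5116, 5021 and 5924 CPM with 2ME and was 2.54-fold lower than with DMSO. krt7 had 13026, 12729.6 and 12941 CPM, a log2 ratio of -0.78 ± 0.098, krt15.2 had 455, 425 and 392 CPM, a log2 ratio of -0.73 ± 0.099, and krt12.5 had 8133, 8628 and 8159 CPM, a log2 ratio of -0.43 ± 0.083. All 2ME libraries of these genes lay below all DMSO libraries.

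krt51 was above the 3-count limit in all 3 libraries with 2ME, at 5.55, 7.25 and 6.61 CPM, a log2 ratio of -1.22 ± 0.17 to DMSO. krt53 likewise had 1.66, 1.98 and 2.44 CPM with 2ME, a log2 ratio of -1.64 ± 0.27. Both genes were thus lower than with DMSO in all 3 libraries, and higher than the few counts seen with echinomycin or IWR-1. Of the simple epithelial keratins, krt18.1 (-0.42 ± 0.082), krt18.3 (-0.28 ± 0.091) and krt19 (-0.32 ± 0.072) fell, the last with its call lost without scaling factors (adjusted p = 0.0804). krt8.1 and krt18.2 were not called, with 95% intervals of the log2 ratio of -0.27 to 0.08 and -0.39 to 0.17. krt78.1 fell (log2 ratio -0.59 ± 0.14), and krt12.6, at 1.33 CPM or less in every library, fell with a log2 ratio of -1.22 ± 0.42 (adjusted p = 0.0389). Both had libraries that overlapped those of DMSO. krt12.6 passed the filter through DMSO, IWR-1 and 0 hpa and not through 2ME, which favours a fall. krt12.4 had 99.8, 87.1 and 107 CPM with 2ME, all above the DMSO libraries, and a log2 ratio of 0.31 ± 0.15 that was not called. These CPM carry no TMM factors, which were 1.03 to 1.05 with 2ME and 0.913 to 0.959 with DMSO. With the factors applied, the libraries of these groups overlapped for krt12.4.

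With echinomycin, a DNA-binding antibiotic that keeps HIF1 from its sites, keratins moved in both directions relative to DMSO. Of the 25 tested, 7 were higher and 8 lower, where 51.6% of all tested models changed, 24.6% higher and 27% lower. Without scaling factors, which moves the median of all models up by 0.15, and with upper-quartile factors, the split was 9 higher and 7 lower. Changes of 2-fold or more were 1 higher and 4 lower, where 8.83% and 3.17% of all models changed so. The median log2 ratio was -0.11, against 0.01 over all models. The models that rose were krt15.2, krt19, krt18.2, krt8.1, krt62, krt222 and krt18.1, and the models that fell were krt51, krt53, krt9.1, krt12.2, krt9.2, krt12.4, krt7 and krt18.3. The fall of krt9.1 is from 39 counts with DMSO to 4 with echinomycin, in a model that passed the filter through DMSO alone. krt51 and krt53, also among the falls of 2-fold or more, passed it through 2ME and DMSO alone. Passing through DMSO and not through echinomycin favours a fall.

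krt15.2 had 1567, 1514 and 1528 CPM with echinomycin, against 555, 608 and 751 CPM with DMSO. It was 2.18-fold higher without overlap, a log2 ratio of 1.12 ± 0.100, and still below all libraries at 0 hpa. krt8.1 had 1962, 1753 and 2173 CPM with echinomycin, the highest of any group, and a log2 ratio of 0.63 ± 0.087 to DMSO. krt18.1 had 1366, 1211 and 1459 CPM, a log2 ratio of 0.38 ± 0.082, and krt19 had 790.4, 714 and 819 CPM, a log2 ratio of 0.67 ± 0.072. krt18.2 had 259.6, 222 and 271 CPM, a log2 ratio of 0.66 ± 0.14. For krt8.1, krt18.1, krt19 and krt18.2 all echinomycin libraries lay above all DMSO libraries and, since DMSO was above 0 hpa, farther from 0 hpa. The keratins of simple epithelia did not all rise. krt18.3 (log2 ratio -0.26 ± 0.092) and krt7 (-0.53 ± 0.097) were called lower, and krt8.2 (0.21 ± 0.10) was not called. krt62 had 2490.4, 2974 and 2821 CPM with echinomycin, a log2 ratio of 0.48 ± 0.12.

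krt12.2 moved the other way, at 1980.1, 3804 and 2593 CPM with echinomycin, 4.90-fold lower than with DMSO, a log2 ratio of -2.29 ± 0.16. Its second echinomycin library stood well above the other two, and all 3 were under every DMSO library. krt51 had 3 counts over the echinomycin libraries, against 881 with DMSO, a ratio of 282 with a counting interval of 96.2 to 1370. krt53 had 2 counts with echinomycin, against 367 with DMSO, a ratio of 176 with an interval of 48.4 to 1460. krt7 had 13649, 17511 and 15216 CPM with echinomycin, a log2 ratio of -0.53 ± 0.097, and its highest echinomycin library lay just under the lowest DMSO library. krt12.5 and krt12.3 were not called, with 95% intervals of -0.28 to 0.05 and -0.42 to 0.16. Without the first DMSO library krt12.5 was called lower (log2 ratio -0.20, adjusted p = 0.0394).

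Among the low members, krt12.4 had 46.2, 61.8 and 43.9 CPM with echinomycin, overlapping DMSO, a log2 ratio of -0.65 ± 0.15. krt9.2 had 5.10, 6.60 and 5.98 CPM with echinomycin, against 8.91, 8.52 and 8.81 CPM with DMSO, a log2 ratio of -0.72 ± 0.15 without overlap, and its DMSO level compares with 5.38, 6.70 and 6.26 CPM at 0 hpa. krt222 had 7.83, 7.59 and 7.38 CPM with echinomycin, above every DMSO library, a log2 ratio of 0.46 ± 0.13.

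**Figure D5:**
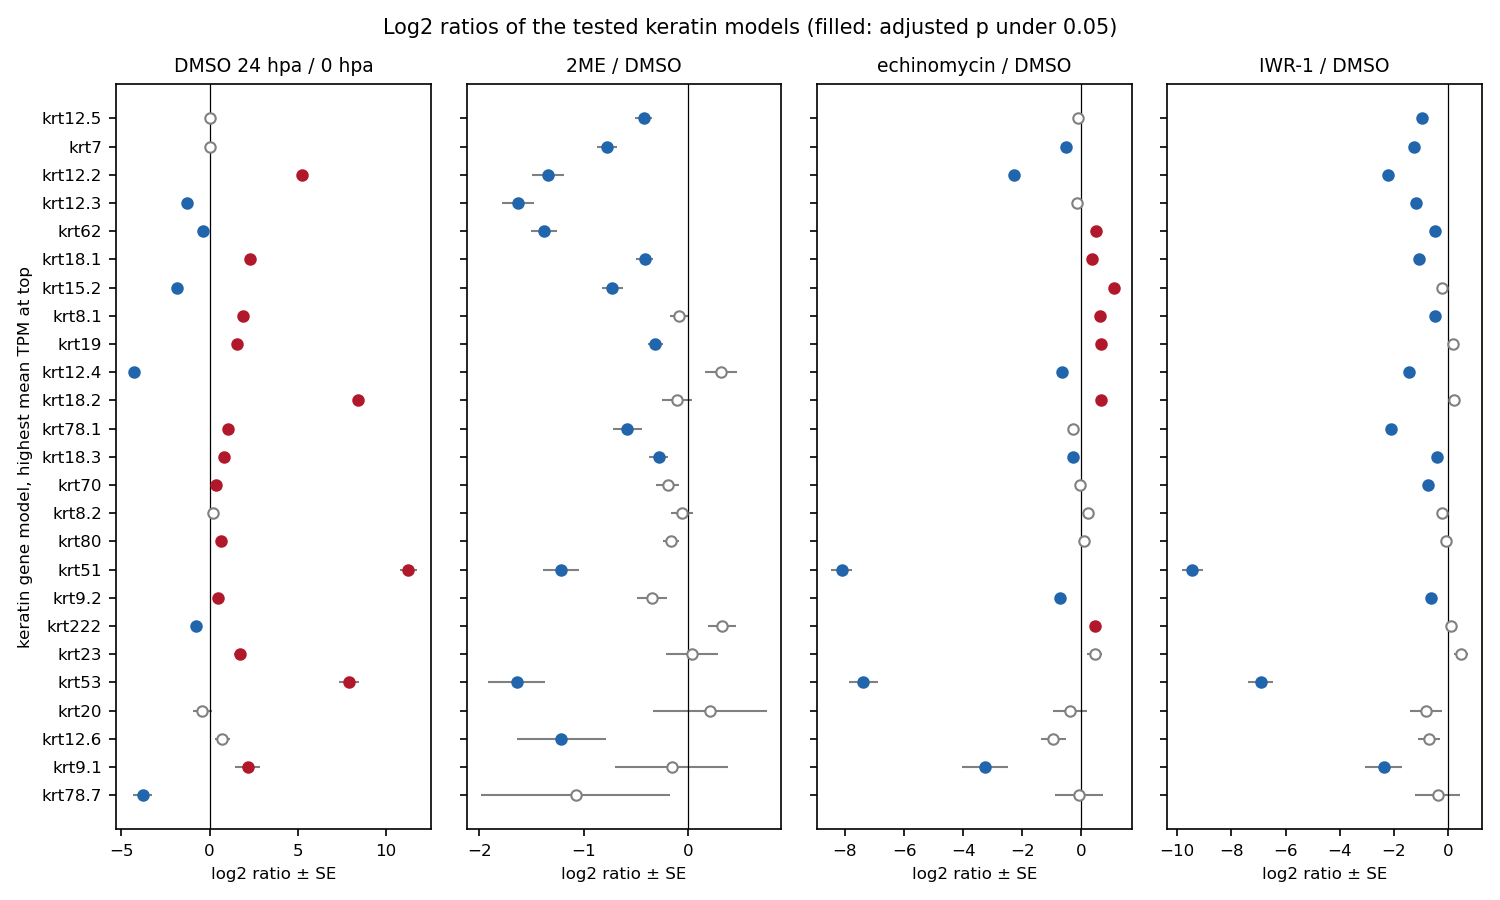
Log2 ratio ± SE of the 25 tested keratins, ordered by mean TPM from the top, for DMSO over 0 hpa and for each compound over DMSO; filled points are called (adjusted p under 0.05), red higher and blue lower. Scales differ between panels, and the points of krt51 and krt53 are fitted values that rest on 0 to 3 counts in 1 group in all panels but that of 2ME. With 2ME and IWR-1 every filled point lies below 0.

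The comparisons with DMSO share its libraries, as does the comparison with 0 hpa, so the compounds were also set against each other, at doses that differ. Between 2ME and echinomycin 16 of the 25 tested keratins differed, 5 higher and 11 lower with 2ME, where 44.1% of all tested models differed, 22.8% higher and 21.3% lower. Between 2ME and IWR-1 15 differed, 11 higher and 4 lower with 2ME, where 22.5% of all models differed, 11.1% higher and 11.4% lower. Between echinomycin and IWR-1 14 differed, all higher with echinomycin, where 34.8% of all models differed, 16.2% higher and 18.6% lower. Differences of 2-fold or more numbered 6, 5 and 5 in these comparisons, where 10.5%, 4.39% and 5.84% of all models differed so. The median log2 ratios of the tested keratins were -0.27, 0.26 and 0.45 in that order. In both comparisons of 2ME, the differences of 2-fold or more include krt51, krt53 and krt9.1, all higher with 2ME. krt51 and krt53 passed the filter through 2ME and DMSO alone, which favours higher values with 2ME. krt9.1 passed through DMSO alone and had 39 counts with 2ME, 4 with echinomycin and 8 with IWR-1.

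The compounds with Hif1a as their stated target, 2ME and echinomycin, differed in 16 of the 25 tested keratins, where 44.1% of all tested models differed. The other 9 keratins were not called. The sum over the krt12 copies was not called between them, at a log2 ratio of -0.10 ± 0.088. For 2ME over echinomycin the log2 ratio was -1.86 ± 0.13 for krt62, -1.85 ± 0.10 for krt15.2, -1.50 ± 0.15 for krt12.3 and -0.99 ± 0.072 for krt19, all lower with 2ME without overlap. It was 0.95 ± 0.16 for krt12.2 and 0.96 ± 0.15 for krt12.4, both higher with 2ME. For echinomycin over IWR-1 the log2 ratio was 1.81 ± 0.14 for krt78.1, 1.47 ± 0.083 for krt18.1, 1.34 ± 0.10 for krt15.2 and 1.12 ± 0.088 for krt8.1. krt12.2 was not separated between echinomycin and IWR-1, at -0.06 ± 0.15 with a 95% interval of -0.37 to 0.24, although without the second echinomycin library it was lower with echinomycin (log2 ratio -0.35, adjusted p = 0.0196). For 2ME over IWR-1 the log2 ratio was 1.76 ± 0.16 for krt12.4 and 1.52 ± 0.14 for krt78.1, and -0.91 ± 0.13 for krt62.

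Genes that anchor keratin filaments moved in both directions. Of 17 tested genes of desmosomes and hemidesmosomes, 6 were higher and 8 lower with DMSO than at 0 hpa, where 63% of all tested models changed, 32.2% higher and 30.8% lower. The integrin chain itgb4, which ties keratin to the basement membrane, had a log2 ratio of -1.23 ± 0.099, the linker dst one of -1.06 ± 0.087, and the desmosomal plakophilin pkp2 one of 0.92 ± 0.077. Against DMSO, 3 of the 17 were higher and 4 lower with 2ME, 8 higher and 3 lower with echinomycin, and 8 higher and 3 lower with IWR-1, where 30.5%, 51.6% and 42.3% of all models changed with these compounds in that order. itgb4 had a log2 ratio to DMSO of 1.12 ± 0.099 with echinomycin and 0.72 ± 0.099 with IWR-1, both called, and of 0.02 ± 0.098 with 2ME, not called. Of 15 tested intermediate filament genes other than keratins, 1 was higher and 13 lower with DMSO than at 0 hpa, where 32.2% of all models were higher and 30.8% lower. They include the muscle filament gene des.1, with a log2 ratio of -2.64 ± 0.14, and the neuronal filament genes ina (-1.42 ± 0.13) and nefm (-2.06 ± 0.19).

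Of 17 tested transcription factors of the epidermis, 14 were higher and 1 lower with DMSO than at 0 hpa, where 32.2% of all models were higher and 30.8% lower. dlx5 had a log2 ratio of 2.05 ± 0.084, klf5 one of 1.501 ± 0.099 and dlx3 one of 0.98 ± 0.069. Against DMSO, 5 were higher and 3 lower with 2ME, 2 higher and 10 lower with echinomycin, and 4 higher and 4 lower with IWR-1, beside 30.5%, 51.6% and 42.3% of all models changed in either direction. dlx5 had log2 ratios to DMSO of -0.29 ± 0.078 with 2ME, -1.07 ± 0.080 with echinomycin and -0.95 ± 0.079 with IWR-1. Of 14 tested genes of epithelial identity, 10 were higher and 0 lower with DMSO than at 0 hpa, beside the same shares of all models, among them the cadherin cdh1 (1.36 ± 0.067), the protease inhibitor spint1 (0.98 ± 0.051) and the transglutaminase tgm5 (2.46 ± 0.20). The summed level of the epithelial genes was 5628 to 5782 CPM with 2ME, 4841 to 5521 CPM with echinomycin, 5823 to 6149 CPM with IWR-1 and 4733 to 5348 CPM with DMSO, against 2904 to 3219.8 CPM at 0 hpa. These sums carry no TMM factors, which were 1.03 to 1.07 in the compound libraries and 0.913 to 0.959 with DMSO. In the scaled fit against DMSO, 4 of the 14 were higher and 2 lower with 2ME, 3 higher and 6 lower with echinomycin, and 5 higher and 3 lower with IWR-1, with median log2 ratios of 0.14, -0.11 and 0.11.

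Markers of other cell types moved with the groups as well. Of all tested models, 32.2% were higher and 30.8% lower with DMSO than at 0 hpa. Against DMSO, 14% were higher and 16.5% lower with 2ME, 24.6% higher and 27% lower with echinomycin, and 19.9% higher and 22.4% lower with IWR-1. Muscle markers fell in 10 of 10 tested with DMSO against 0 hpa, with a summed level of 1311 to 1754 CPM with DMSO, against 17756 to 19856 CPM at 0 hpa, and all 10 were higher than with DMSO in each compound group, at 1961 to 3257 CPM with 2ME, 4476 to 5557 CPM with echinomycin and 3984 to 4638 CPM with IWR-1. Of 8 notochord markers, 5 were higher and 3 lower with DMSO than at 0 hpa (median log2 ratio 0.59), and 6 higher and 1 lower with echinomycin than with DMSO. Their sum, 3687 to 4573 CPM with echinomycin, 1491 to 1607 CPM with DMSO and 3496 to 3865 CPM at 0 hpa, is mostly the collagen gene col2a1, which averaged 3938 CPM with echinomycin, 1461 CPM with DMSO and 3541 CPM at 0 hpa. Leukocyte markers summed to 183 to 196 CPM with 2ME, 432 to 521 CPM with echinomycin, 334 to 375 CPM with IWR-1, 293 to 313 CPM with DMSO and 89.2 to 105 CPM at 0 hpa. Erythroid markers fell in 9 of 9 with DMSO (51.0 to 65.5 CPM in sum) against 0 hpa (1617 to 6379.5 CPM), and endothelial markers in 7 of 7 with DMSO (at most 36.0 CPM) against 0 hpa (133 to 139 CPM). Multiciliated cell markers summed to 80.0 to 99.6 CPM with DMSO, against 157 to 186 CPM at 0 hpa. Within the epidermis, ionocyte markers fell in 8 of 8 and multiciliated cell markers in 9 of 9 with DMSO against 0 hpa. The ionocyte sum was 1139.6 to 1168 CPM with 2ME, 511 to 602 CPM with echinomycin, 1145 to 1207 CPM with IWR-1 and 575 to 757 CPM with DMSO, against 1243 to 1373 CPM at 0 hpa. Goblet and small secretory cell markers and neuron markers moved in both directions with DMSO against 0 hpa, 2 higher and 2 lower of 5 and 2 higher and 4 lower of 8. With IWR-1, 0 of the 5 goblet and small secretory cell markers were higher and 4 lower than with DMSO, with sums of 579.7 to 749 CPM with IWR-1 and 1081 to 1347 CPM with DMSO, which did not overlap. Against DMSO, 1 was higher and 2 lower with 2ME, and 0 higher and 1 lower with echinomycin. The part of these shifts in the keratin values was not tested.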

How the data were processed

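Bulk RNA was measured in 15 libraries, 5 groups of 3. Per the submitters' processing notes, reads were trimmed with Trim Galore 0.6.5 and quantified with kallisto; which kallisto version and genome build were used is not given in the sources used here. In the deposited tables, kallisto gives, for each of 34192 gene models, estimated counts, the effective length and transcripts per 1000000 (TPM), per the file headers. The authors also deposited a CPM table of 15892 models, which holds 18 keratins and was used only as an alternative. The kit is not stated to mark strand, so reads of overlapping antisense genes cannot be told apart.

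The estimated counts, rounded to whole numbers, entered edgeR 4.0.16 (R 4.3.3): TMM factors, filterByExpr (minimum of 10 counts, 15 in all), 1 coefficient a group over all 15 libraries, quasi-likelihood F tests and Benjamini-Hochberg adjustment over 18823 models. All adjusted p-values come from this fit unless another is named. The printed CPM values are estimated counts over the library total, without TMM factors. The 95% intervals are taken from the log2 ratio and its SE. Counting intervals and the limit of 3 counts cover counting error only. limma 3.58.1 and DESeq2 1.42.0 served as alternatives. The fitting code was tested on simulated data. No 2 libraries of a group agreed within sampling noise.

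Members and gene lists were chosen with earlier results of these data known. Described in full are the 8 keratins with the highest mean TPM and, per comparison, the 6 largest called rises and falls with a mean of at least 5 CPM in 1 group; list examples are up to 3 genes with the smallest adjusted p for DMSO against 0 hpa. Other keratins are given by range, count or single values. Of 150 listed symbols of 13 lists, 140 were found, 4 of them through a synonym. Keratin types had been planned from RefSeq product names; names and array position were used instead, a choice made after seeing the files, as were the sums over numbered copies. Protein identity, promoter motifs and sequences are not used here.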

Additional observations from a re-analysis of the deposited data

How the results depend on the processing

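The named keratins include the largest called changes of the same fit, and some settings leave out a library of a group outside the comparison. A kept direction is therefore partly built in. The 88 called log2 ratios of named keratins kept their direction in all 2272 combinations of a ratio and a setting that were run. In 31 of these combinations a call ended, spread over 7 of the ratios. Beside those given with the results, they were krt19 for 2ME against DMSO with limma on the deposited CPM table (adjusted p = 0.0746), krt62 for IWR-1 against DMSO likewise (0.0708), krt7 for 2ME against echinomycin, krt12.3 for 2ME against IWR-1, and krt18.2 and krt222 for echinomycin against IWR-1, each of the last 4 without any of several single libraries. The replicate block also ended the calls of krt7 (adjusted p = 0.0517) and krt222 (0.0530), and krt222 lost its call with no filter (0.0751), with the 2 groups alone (0.0501) and in DESeq2 (0.0502). For the 24 ratios that were not called, 617 such combinations were run, of which 31 made a call and 33 turned the sign.

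For DMSO against 0 hpa, krt12.5 was -0.000466 with RLE factors, -0.0642 with upper-quartile factors, -0.0126 with TMM factors from a table without keratins and -0.000463 in DESeq2, and krt7 was -0.0168, -0.0807, -0.0290 and -0.0168 under these, -0.0113 with an effective length offset and -0.00555 with the 2 groups alone. For 2ME against DMSO, krt8.1 was 0.0458 without scaling factors and 0.0506 with limma, and krt18.2 was 0.0337 without factors. For echinomycin against DMSO, krt12.5 was 0.0345 and 0.0402, and krt12.3 0.0204 and 0.0217, without factors and with limma. Leaving out each library in turn gave -0.0520 to 0.110 for krt12.5 and -0.0705 to 0.0949 for krt7 (DMSO against 0 hpa), -0.270 to 0.00565 for krt18.2 (2ME against DMSO), -0.274 to 0.00516 for krt12.3 (echinomycin against DMSO) and -0.0403 to 0.209 for krt222 (IWR-1 against DMSO). For echinomycin against IWR-1 it gave -0.354 to 0.134 for krt12.2, -1.01 to 0.411 for krt53 and -0.242 to 0.0947 for krt9.2. The cause was not tested.

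Leaving out each library gave 11 to 14 called keratins for 2ME, 14 to 17 for echinomycin and 14 to 18 for IWR-1 against DMSO, 19 to 20 for DMSO against 0 hpa, 13 to 17 for 2ME against echinomycin, 13 to 16 for 2ME against IWR-1 and 12 to 14 for echinomycin against IWR-1. With a 2-fold threshold the counts were 6 for 2ME, 5 for echinomycin and 9 for IWR-1 against DMSO, and 6, 5 and 5 for the 3 pairs of compounds in that order; the stricter threshold itself lowers them. Without scaling factors the median of all models against DMSO moved by 0.140 for 2ME, by 0.146 for echinomycin and by 0.159 for IWR-1, and by 0.104 with upper-quartile factors for echinomycin. The deposited CPM table lists 18 keratins among 15892 models. On it, limma called 2 higher and 8 lower for 2ME, 8 higher and 4 lower for echinomycin, and 2 higher and 10 lower for 2ME against echinomycin. The shares of all models called with a library left out, with other scaling factors or none, or with limma are not given here. Such counts therefore describe the keratins alone.

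The share of TPM held by keratins was 2.35% with 2ME, 2.92% with echinomycin, 1.77% with IWR-1, 3.49% with DMSO and 3.07% at 0 hpa. Leaving out each library gave shares of counts of 3.16 to 3.19%, 3.84 to 4.23%, 2.32 to 2.47%, 4.95 to 5.34% and 4.20 to 4.42% for these groups in that order, and type I to type II ratios of 1.79 to 1.84, 1.59 to 1.63, 1.66 to 1.68, 1.88 to 1.96 and 1.505 to 1.532. Over estimated counts the ratios were 1.09, 0.961, 1.00, 1.17 and 0.891.

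With the replicate number as a block the counts of called keratins were 12 for 2ME, 15 for echinomycin and 15 for IWR-1 against DMSO, 20 for DMSO against 0 hpa, and 14, 15 and 13 for the pairs of compounds. The share of all models called in that fit is not given here. Correlations of same-numbered deviations ran from -0.230 to 0.159 over 21 pairs, of which 6 correlated best with their own number. The pairs share libraries, and each deviation is from a mean of 3. These values therefore gave no clear pairing by number and cannot exclude one. Sums over copies by protein identity were not run. Depth limits what can be said of the 21 untested keratins, of krt51 and krt53 where they have few or no counts, and of copies that share reads.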
